A study of Mus musculus with 6 samples.

Results

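Accessibility around 10 genes that mark blood vessel cells was described in sorted nuclei of the mouse ventral tegmental area. Cldn5, Pecam1, Flt1, Kdr, Tek, Cavin1 and Egfl7 are used as markers of endothelial cells, which line the vessel. Pdgfrb, Rgs5 and Cspg4 are used as markers of mural cells, the pericytes and smooth muscle cells that wrap it. The members were the accessible regions that overlap the RefSeq bounds of these genes extended by 20 kb on each side, which gave 76 of 193148 regions in the deposited mm10 tables. The genes were proposed with results of the same contrast known, so every call below describes these libraries and supports no statement about vessels.

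Mice with the genotype label Ogtflox+/Y were compared with mice labelled Ogtflox-/Y, with 3 ATAC-seq libraries each. Ogt encodes O-GlcNAc transferase, and the design text states that its knockdown was the question. Both genotypes received a pair of viruses by injection into the ventral tegmental area. AAV-TH-Cre carried Cre recombinase, and AAV-DIO-H2B-EGFP carried a nuclear fluorescent tag by which the nuclei were sorted. Cre came from a viral vector named for tyrosine hydroxylase (Th), so the sort was aimed at dopaminergic neurons and not at vessel cells. The ages of the mice are not given in the labels. Ogtflox+/Y replicate 1 has a title that names the other genotype. The calls of member regions and member gene sums were therefore also computed with that library on the other side. Start levels and the results of other gene lists are given by the genotype label only. The labels do not say whether libraries came from separate animals, so the p-values rest on library-to-library spread, part or all of which may be technical. In bulk nuclei, fewer nuclei of a cell type and less accessibility per nucleus cannot be told apart.

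Brain endothelial cells are sealed by tight junctions and respond to vascular endothelial growth factor (VEGF) and angiopoietins through receptor tyrosine kinases. Pericytes are recruited to the vessel by platelet-derived growth factor (PDGF) acting on the receptor that Pdgfrb encodes. Open chromatin at a gene start and at distal elements generally accompanies use of a gene in a cell type.

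Reads in regions ranged from 12698758 to 15795872 per library in Ogtflox+/Y and from 13120042 to 24440507 in Ogtflox-/Y. They made up 31.0% to 37.0% of each library's total in Ogtflox+/Y and 36.6% to 38.2% in Ogtflox-/Y. Levels of single regions are counts per 1000000 reads in regions (CPM) after TMM scaling, and 3 reads correspond to 0.117 to 0.238 CPM. Regions were called higher or lower where edgeR's Benjamini-Hochberg adjusted p, over 191693 regions tested, was under 0.05. Fold changes are log2 of Ogtflox+/Y over Ogtflox-/Y.

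Promoter sequence is shown for 6 of the 8 genes with a start in the promoter table, so that the start regions described below can be read against it. The start regions of Cldn5, Kdr and Cavin1 include called ones, and those of Flt1, Egfl7 and Rgs5 were not called. Each run is the 250 bases upstream of a RefSeq start site in GRCm38.p6, written 5′ to 3′ on the gene's own strand. Capitals mark matches, on either strand, to AGGAAG (a core bound by ETS factors, which are active in endothelium), AGATAA (bound by GATA factors) or GGGCGG (the GC box).
Cldn5: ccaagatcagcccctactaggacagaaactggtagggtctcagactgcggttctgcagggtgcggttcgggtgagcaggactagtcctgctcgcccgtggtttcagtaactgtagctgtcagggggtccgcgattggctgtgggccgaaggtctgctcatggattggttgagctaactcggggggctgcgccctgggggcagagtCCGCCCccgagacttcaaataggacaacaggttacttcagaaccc
Flt1: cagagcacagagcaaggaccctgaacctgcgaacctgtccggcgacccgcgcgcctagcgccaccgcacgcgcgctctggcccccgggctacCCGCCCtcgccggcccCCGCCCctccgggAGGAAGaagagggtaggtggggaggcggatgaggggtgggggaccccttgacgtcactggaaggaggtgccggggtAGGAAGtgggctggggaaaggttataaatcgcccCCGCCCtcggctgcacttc
Kdr: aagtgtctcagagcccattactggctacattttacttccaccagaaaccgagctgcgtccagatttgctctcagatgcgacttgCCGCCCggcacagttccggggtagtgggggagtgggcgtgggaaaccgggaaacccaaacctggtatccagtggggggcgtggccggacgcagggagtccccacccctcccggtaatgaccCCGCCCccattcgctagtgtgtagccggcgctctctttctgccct
Cavin1: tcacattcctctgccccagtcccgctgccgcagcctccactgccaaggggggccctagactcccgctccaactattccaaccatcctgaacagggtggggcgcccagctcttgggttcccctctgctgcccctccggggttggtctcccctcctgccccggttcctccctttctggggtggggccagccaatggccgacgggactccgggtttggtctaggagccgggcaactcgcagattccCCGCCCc
Egfl7: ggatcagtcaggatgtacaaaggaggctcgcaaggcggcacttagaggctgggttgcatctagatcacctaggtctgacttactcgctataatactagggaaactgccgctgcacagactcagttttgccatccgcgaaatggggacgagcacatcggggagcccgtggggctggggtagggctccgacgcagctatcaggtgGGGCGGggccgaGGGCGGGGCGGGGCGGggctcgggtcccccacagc
Rgs5: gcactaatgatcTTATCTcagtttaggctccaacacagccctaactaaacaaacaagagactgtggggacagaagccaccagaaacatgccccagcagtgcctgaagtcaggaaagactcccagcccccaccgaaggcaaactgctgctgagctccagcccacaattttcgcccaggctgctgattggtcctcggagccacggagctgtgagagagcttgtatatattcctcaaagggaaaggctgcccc
These windows lie at chr16:18776597-18776846 (plus strand), chr5:147726012-147726261 (minus), chr5:75978456-75978705 (minus), chr11:100970618-100970867 (minus), chr2:26586386-26586635 (plus) and chr1:169655251-169655500 (plus), in the order shown. The Egfl7 window belongs to the start that falls in its most accessible region.

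The windows differed in these letters. Flt1 held 2 matches to AGGAAG, at 124 and 48 bases upstream of its start, and 3 to GGGCGG. The Flt1 start region covers only the last 10 bases of this window and includes none of these matches. Kdr held 2 GGGCGG matches, Cavin1 and Cldn5 1 each, and the Egfl7 window 4, of which neighbouring matches share bases. The windows of the Egfl7 starts at 26581083 and 26583865, not shown, held 3 and 1 AGGAAG matches and no GC box. Rgs5 held 1 AGATAA match, at 233 bases upstream, and no GC box. Over 21262 promoter windows of the same length, 28.5% held AGGAAG, 8.81% AGATAA and 42.6% GGGCGG. No window of a member held TTCNNNGAA (the STAT-type palindrome, in 6.58% of windows) or the CArG box (bound by serum response factor, in 1.39%). A match is a description of letters in this window and not a site of binding.

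The start sites of these genes were weakly open in both genotypes. That of Egfl7 was the most open but also lay below the median of coding genes with a start region. Of the 8 genes with a start in the promoter table, 7 had a region within 1 kb of it. Tek, which encodes the angiopoietin receptor TIE2, had none there. On the deposited RPKM scale, which is per region length and per library total, the median start level of the 7 genes was 1.95 in Ogtflox+/Y and 3.29 in Ogtflox-/Y. Over 11329 coding genes with a start region the median was 19.8 RPKM in Ogtflox+/Y and 20.3 RPKM in Ogtflox-/Y. Egfl7 was highest, with 11.7 ± 1.52 RPKM in Ogtflox+/Y and 11.98 ± 0.707 RPKM in Ogtflox-/Y (SD, n = 3 each). Cspg4 was lowest in Ogtflox-/Y, with 1.28 ± 0.433 RPKM in Ogtflox+/Y against 0.919 ± 0.147 RPKM in Ogtflox-/Y.

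Start sites of neuronal genes covered a wide range. The 10 dopaminergic genes, of the type the sort was aimed at, had start medians of 5.61 RPKM in Ogtflox+/Y and 6.57 RPKM in Ogtflox-/Y, below the level of Egfl7. Th, which encodes tyrosine hydroxylase, the enzyme that starts dopamine synthesis, stood far above that median. Its start had 158.5 ± 22.9 RPKM in Ogtflox+/Y and 258.6 ± 96.7 RPKM in Ogtflox-/Y. Pan-neuronal genes had start medians of 24.2 RPKM in Ogtflox+/Y and 24.1 RPKM in Ogtflox-/Y. Other endothelial genes had medians of 2.35 RPKM in Ogtflox+/Y and 3.67 RPKM in Ogtflox-/Y. Other mural genes had 1.81 RPKM in Ogtflox+/Y and 1.78 RPKM in Ogtflox-/Y.

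**Figure D1:**
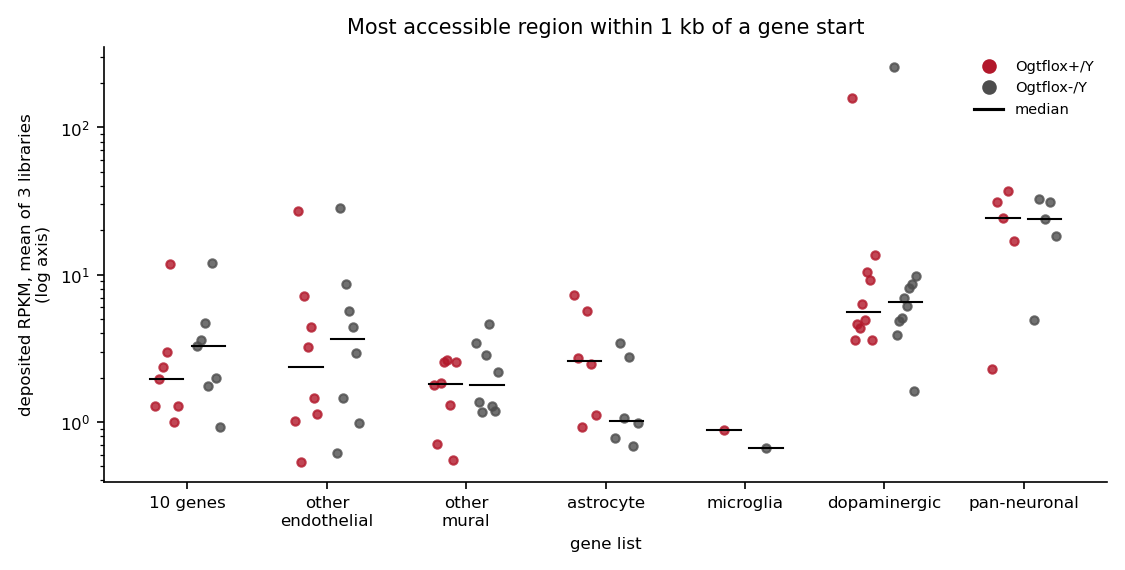
Deposited RPKM (mean of 3 libraries, log axis) of the most accessible region within 1 kb of each gene's start, by gene list, with Ogtflox+/Y left of Ogtflox-/Y; points are genes and lines are medians. The median of the 7 vessel genes with a start region, 1.95 RPKM in Ogtflox+/Y and 3.29 RPKM in Ogtflox-/Y, lies below that of the pan-neuronal genes, 24.2 RPKM in Ogtflox+/Y and 24.1 RPKM in Ogtflox-/Y.

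Reads were next summed over all regions of each gene's 20 kb window, which gives 1 value per gene in CPM of reads in gene windows, and fitted over 18416 genes. Cldn5, Kdr, Pdgfrb and Rgs5 were lower in Ogtflox+/Y, and the other 6 genes did not pass the test. Over all genes 17.9% were called higher and 19.6% lower. No member was called higher in edgeR or in DESeq2, and 0 were higher at an unadjusted p under 0.05. The median log2 fold change was -0.13 over the 10 genes and 0.00094 over all genes. When the scaling factors of the single-region fit were used instead, 35.3% of all genes were higher and 8.24% lower, and the median of all genes moved to 0.14. The same 4 genes were lower and 0 higher with those factors as well.

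**Figure D2:**
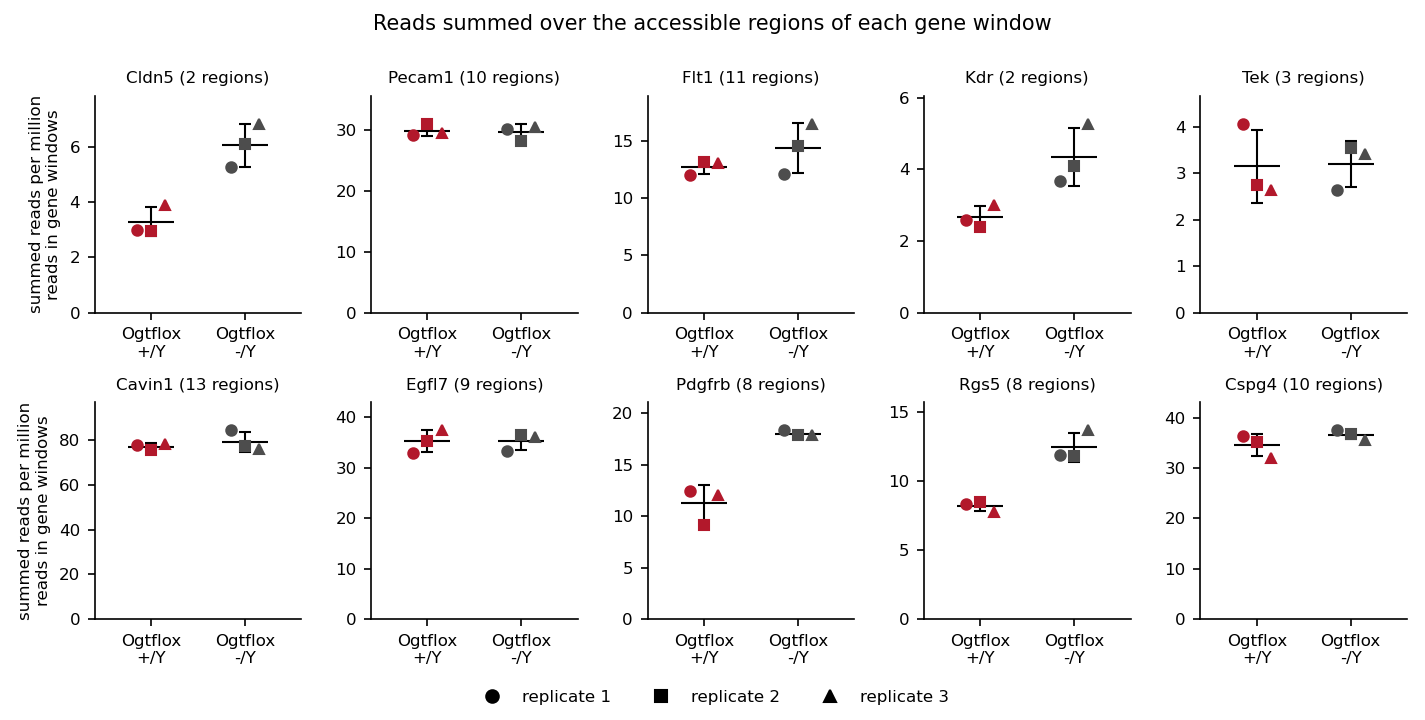
Reads summed over the accessible regions in each gene's window, in CPM of reads in gene windows, for each library (markers), with the mean and SD of 3 libraries, Ogtflox+/Y left of Ogtflox-/Y; every axis starts at 0. The libraries of the genotypes do not overlap for Cldn5, Kdr, Pdgfrb and Rgs5, and overlap for the other 6 genes. The share of all genes whose sums do not overlap was not computed.

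Single regions went in both directions. Of 75 member regions tested, 10 were higher in Ogtflox+/Y, beside 15.4% of all regions, and 12 were lower, beside 12.7% of all regions. The remaining 53 were not called. Of the 75 regions, 13 had all Ogtflox+/Y libraries above all Ogtflox-/Y libraries, as did 21.0% of all regions, and 24 had them all below, as did 21.2%. The median log2 fold change was -0.083 over the members and -0.0063 over all regions. With library totals as the scaling, 6 member regions were higher, beside 6.85% of all regions, and 26 were lower, beside 24.6%, and the median of all regions was -0.27. The region nearest the threshold on the called side had an adjusted p of 0.031 and the nearest beyond it 0.051. A further region, inside Pdgfrb, had too few reads to be tested, with 4, 3 and 8 reads in Ogtflox+/Y and 8, 12 and 22 in Ogtflox-/Y.

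Calls were spread over genes and positions. Cavin1, Flt1, Egfl7, Pdgfrb and Pecam1 each had regions in both directions. Endothelial and caveolar genes had 8 higher and 8 lower of 50 regions, and mural genes 2 higher and 4 lower of 25. At gene starts 1 region was higher and 2 were lower of 9, inside genes 4 and 6 of 30, and in the flanks 4 and 3 of 34. Another coding gene lay within 1 kb of 12 regions, of which 3 were higher and 1 lower. Of 22 calls, 13 held when any single library was left out, and none held when libraries were grouped by title.

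**Figure D3:**
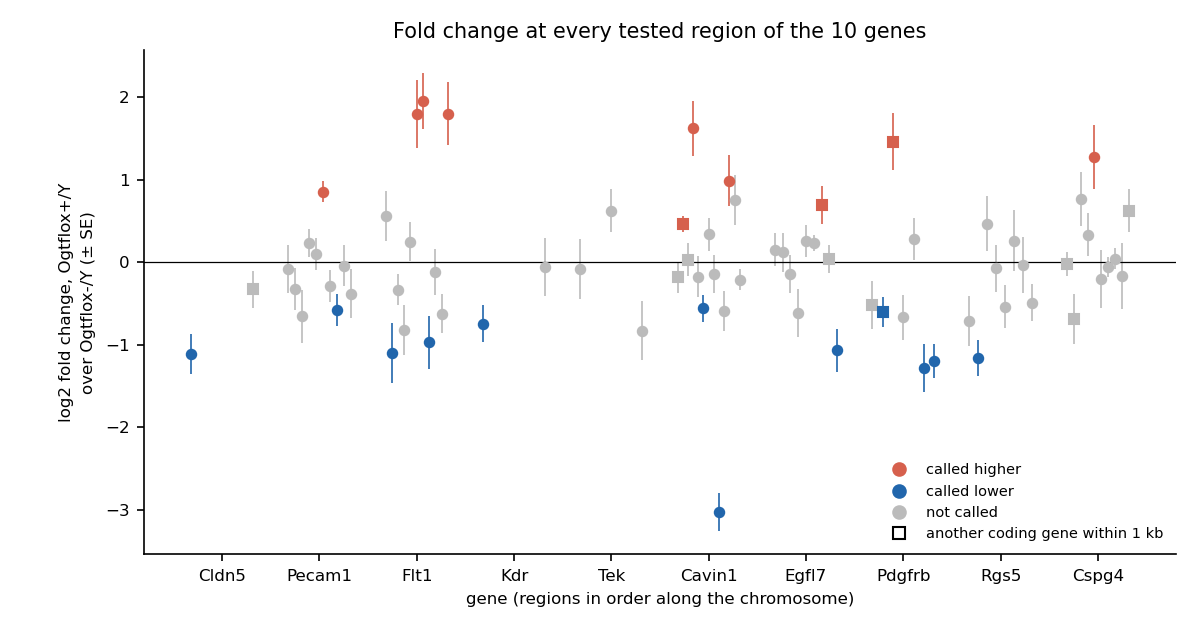
Log2 fold change (Ogtflox+/Y over Ogtflox-/Y, ± SE of the edgeR fit, n = 3 libraries each) of the 75 tested regions, by gene and in chromosome order; squares have another coding gene within 1 kb. Red marks the 10 regions called higher and blue the 12 called lower, and the lowest point is the Cavin1 region at -3.03.

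Cldn5 encodes claudin-5, the main claudin of brain endothelial tight junctions. Its summed reads were 3.00, 2.95 and 3.88 CPM in Ogtflox+/Y replicates 1 to 3, against 5.26, 6.08 and 6.81 CPM in Ogtflox-/Y replicates 1 to 3. The highest Ogtflox+/Y library stayed below the lowest Ogtflox-/Y library. The log2 fold change was -0.88 (SE 0.19, edgeR adjusted p = 0.0018). The region called was the one at the start (chromosome 16, 18777069 to 18777679), centred 527 bp downstream of the start site. It begins beyond the promoter window shown. This region had 2.72, 1.51 and 2.92 CPM in Ogtflox+/Y, against 4.48, 5.31 and 5.73 CPM in Ogtflox-/Y. It fell by 1.11 on the log2 scale (SE 0.24, edgeR adjusted p = 0.0025), and of the alternatives run the call was lost only under grouping by title (-1.05, edgeR adjusted p = 0.41). A second region of the window, within 1 kb of the neighbouring gene Cdc45, had a log2 fold change of -0.33 and was not called. It had 2.27, 3.09 and 3.32 CPM in Ogtflox+/Y and 3.57, 3.48 and 3.88 CPM in Ogtflox-/Y, also without overlap.

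Pecam1 encodes an adhesion molecule of endothelial cell contacts that is also present on platelets and leukocytes. Its summed reads overlapped between genotypes, at 29.2, 31.0 and 29.6 CPM in Ogtflox+/Y and 30.2, 28.2 and 30.6 CPM in Ogtflox-/Y. The log2 fold change was 0.015 (SE 0.074, edgeR adjusted p = 0.90). Inside this sum, regions moved in both directions. The most accessible region, inside the gene (chromosome 11, 106674542 to 106674942), had 18.3, 17.9 and 18.7 CPM in Ogtflox+/Y, against 10.6, 8.98 and 10.8 CPM in Ogtflox-/Y. It was higher by 0.86 on the log2 scale (SE 0.12, edgeR adjusted p = 1.3e-04), with close libraries in both genotypes. A region inside the gene a few kilobases away (106679826 to 106680226) had 4.46, 3.33 and 4.45 CPM in Ogtflox+/Y and 6.99, 5.90 and 5.63 CPM in Ogtflox-/Y. It fell by 0.58 (edgeR adjusted p = 0.031), and no longer passed in DESeq2 (adjusted p = 0.065), with loess offsets (edgeR adjusted p = 0.060), nor without Ogtflox-/Y replicate 1, Ogtflox-/Y replicate 2 or Ogtflox+/Y replicate 2 (edgeR adjusted p = 0.079 to 0.11).

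Flt1 and Kdr encode VEGF receptors. The FLT1 protein binds VEGF tightly and has weak kinase activity, while the KDR protein carries most VEGF signalling in endothelium. The Kdr sum was 2.59, 2.39 and 3.01 CPM in Ogtflox+/Y, against 3.67, 4.11 and 5.26 CPM in Ogtflox-/Y. The genotypes did not overlap, and the log2 fold change was -0.71 (SE 0.21, edgeR adjusted p = 0.014). The call was lost without Ogtflox-/Y replicate 3 (-0.54, edgeR adjusted p = 0.091), with loess offsets (edgeR adjusted p = 0.079), with Ogtflox+/Y replicate 2 alone (0.058) and under grouping by title (0.43). Its start region (chromosome 5, 75978111 to 75978511), which holds the start site and the last 56 bases of the promoter window shown, had 3.18, 2.77 and 2.79 CPM in Ogtflox+/Y. In Ogtflox-/Y it had 3.57, 5.00 and 5.87 CPM, so every Ogtflox+/Y library was lower. It fell by 0.74 on the log2 scale (SE 0.22, edgeR adjusted p = 0.019). The call was lost without Ogtflox-/Y replicate 2, Ogtflox-/Y replicate 3 or Ogtflox+/Y replicate 3 (edgeR adjusted p = 0.061 to 0.10). A non-coding gene, Gm32727, also overlaps it.

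The Flt1 sum did not pass the test, at 11.97, 13.1 and 13.1 CPM in Ogtflox+/Y and 12.1, 14.5 and 16.4 CPM in Ogtflox-/Y (log2 fold change -0.18, edgeR adjusted p = 0.27). Regions along the gene differed from each other. The start region (147725621 to 147726021) had 2.87, 2.38 and 2.06 CPM in Ogtflox+/Y and 2.89, 4.06 and 4.12 CPM in Ogtflox-/Y, and was not called (-0.62, edgeR adjusted p = 0.054). Distal regions with few reads were higher, 3 in all. A region 54264 bp into the gene (147671547 to 147671947) had 24, 26 and 33 reads in Ogtflox+/Y and 5, 10 and 16 reads in Ogtflox-/Y. That is 1.81, 2.06 and 2.19 CPM in Ogtflox+/Y, against 0.380, 0.391 and 0.758 CPM in Ogtflox-/Y, which is 1.95 on the log2 fold scale (SE 0.34, edgeR adjusted p = 5.2e-04). It was the largest gain of the 75 regions.

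The second Flt1 gain, 80591 bp into the gene, had 2.12, 0.872 and 1.26 CPM in Ogtflox+/Y and 0.456, 0.391 and 0.379 CPM in Ogtflox-/Y (log2 fold change 1.80, edgeR adjusted p = 0.0038). The third lay 10957 bp upstream of the start, with 1.06, 1.82 and 1.86 CPM in Ogtflox+/Y and 0.304, 0.391 and 0.615 CPM in Ogtflox-/Y (1.80, edgeR adjusted p = 0.0023). All 3 gains had no overlap between genotypes and held with any library left out. With Ogtflox+/Y replicate 2 alone the log2 fold change of the second gain shrank to 1.08. A region 27695 bp into the gene had 0.680, 1.03 and 0.665 CPM in Ogtflox+/Y and 1.52, 1.68 and 1.42 CPM in Ogtflox-/Y, and fell by 0.97 (edgeR adjusted p = 0.029). A region 7012 bp beyond the gene fell by 1.10 (edgeR adjusted p = 0.030). Both falls were lost in DESeq2 (adjusted p = 0.13 each). The region inside the gene was lost without Ogtflox-/Y replicate 1 or 2 or Ogtflox+/Y replicate 1 or 3, and the flanking region without Ogtflox-/Y replicate 2 or 3 or Ogtflox+/Y replicate 1 or 2 (edgeR adjusted p = 0.060 to 0.11 for each).

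Tek had the lowest sum of the 10 genes in Ogtflox-/Y. It was 4.05, 2.75 and 2.64 CPM in Ogtflox+/Y and 2.63, 3.54 and 3.42 CPM in Ogtflox-/Y, so the genotypes overlapped (log2 fold change -0.040, edgeR adjusted p = 0.91). None of its 3 regions was called, and their log2 fold changes ran from -0.83 to 0.63. The most accessible lay inside the gene (chromosome 4, 94752536 to 94752936), with 4.39, 2.46 and 2.79 CPM in Ogtflox+/Y and 1.52, 2.30 and 2.27 CPM in Ogtflox-/Y (0.63, edgeR adjusted p = 0.082).

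Cavin1 encodes a coat protein of caveolae, the membrane pits abundant in peripheral endothelium, smooth muscle and fat cells. Its window held the strongest change of the 75 regions. The region inside the gene, 9804 bp downstream of the start (chromosome 11, 100960611 to 100961011), had 1.06, 0.951 and 0.997 CPM in Ogtflox+/Y. In Ogtflox-/Y it had 9.04, 8.91 and 6.87 CPM, so that it was 8.18-fold lower in Ogtflox+/Y and no library came near the other genotype. The log2 fold change was -3.03 (SE 0.23, edgeR adjusted p = 1.9e-07), and it ran from -3.15 to -2.96 with each library left out. Grouped by title it was -2.74 (edgeR adjusted p = 0.41). Its neighbours inside the gene, at 11494 and 10988 bp from the start, had log2 fold changes of 0.34 and -0.14 and were not called.

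The other called regions of Cavin1 were smaller changes. A flanking region 9494 bp beyond the gene (100946588 to 100947242) had 3.18, 1.27 and 2.33 CPM in Ogtflox+/Y, against 0.684, 0.820 and 0.663 CPM in Ogtflox-/Y (1.62, edgeR adjusted p = 0.0021). With Ogtflox+/Y replicate 2 alone its log2 fold change was 0.77. The region at the gene's end (100957229 to 100957629) fell by 0.56 (edgeR adjusted p = 0.017). That call was lost without Ogtflox-/Y replicate 1, Ogtflox-/Y replicate 2 or Ogtflox+/Y replicate 3 (edgeR adjusted p = 0.071 to 0.072). The region that holds the start site and 212 bases of the promoter window shown (100970429 to 100970829) had 4.76, 1.59 and 4.59 CPM in Ogtflox+/Y. In Ogtflox-/Y it had 1.52, 1.95 and 1.99 CPM, and Ogtflox+/Y replicate 2 lay within that range. It was called higher (0.99, SE 0.31, edgeR adjusted p = 0.024), but the call was lost without any library other than Ogtflox+/Y replicate 2 (edgeR adjusted p = 0.059 to 0.12) and with library totals (edgeR adjusted p = 0.093). The adjoining start region (100970006 to 100970406) had 1.66, 1.74 and 1.99 CPM in Ogtflox+/Y and 2.96, 3.01 and 2.23 CPM in Ogtflox-/Y (-0.59, edgeR adjusted p = 0.079).

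The Cavin1 sum differed with and without the regions of its neighbour. The most accessible region of the window (100939359 to 100939759) overlaps Stat3, which encodes a transcription factor of cytokine signalling. It had 70.3, 59.0 and 66.5 CPM in Ogtflox+/Y, against 51.7, 44.2 and 46.6 CPM in Ogtflox-/Y (0.46, SE 0.098, edgeR adjusted p = 0.0023). It was no longer called with library totals (0.20, edgeR adjusted p = 0.21) or loess offsets (0.12, edgeR adjusted p = 0.17). With it, the Cavin1 sum was 78.0, 75.7 and 78.2 CPM in Ogtflox+/Y and 84.5, 77.4 and 76.3 CPM in Ogtflox-/Y (-0.036, edgeR adjusted p = 0.64). Without regions near another coding gene the sum was lower in Ogtflox+/Y, at -0.35 on the log2 scale (SE 0.071, edgeR adjusted p = 0.0020). Within the gene bounds alone it was -0.64 (SE 0.093, edgeR adjusted p = 1.2e-04). Both of these sums include the region at 100960611, with means of 1.00 CPM in Ogtflox+/Y and 8.27 CPM in Ogtflox-/Y. They also include the start region at 100970429, which was called higher. Neither sum was computed without the region at 100960611.

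**Figure D4:**
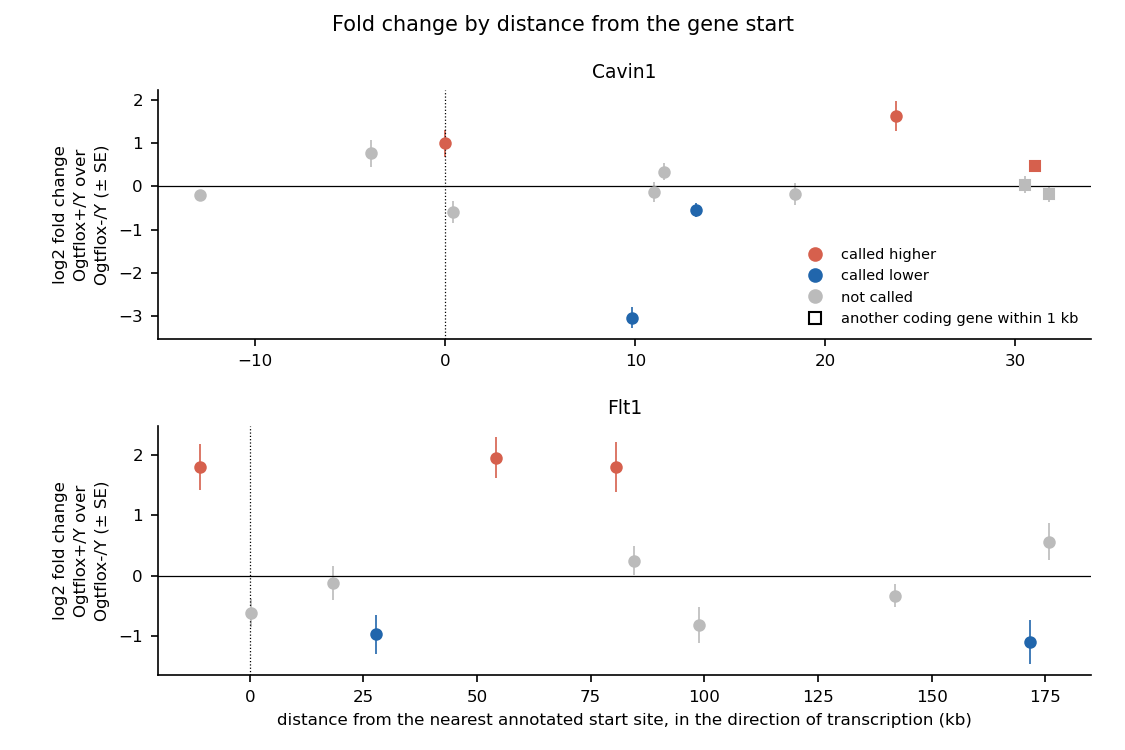
Log2 fold change (± SE, Ogtflox+/Y over Ogtflox-/Y) of each tested region of Cavin1 and Flt1 by its distance in kb from the nearest annotated start, counted in the direction of transcription; squares have another coding gene within 1 kb. In Cavin1 the region at -3.03 stands alone between uncalled neighbours, and in Flt1 the 3 gains of 1.80 to 1.95 lie in the same window as falls and uncalled regions, with 2 of the gains next to each other.

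Egfl7 encodes a secreted protein of endothelial cells and hosts the endothelial microRNA gene Mir126a. Its sum was 32.9, 35.3 and 37.4 CPM in Ogtflox+/Y and 33.3, 36.4 and 36.0 CPM in Ogtflox-/Y (-0.0048, SE 0.072, edgeR adjusted p = 0.97). The start region that covers the whole GC-box window shown above (chromosome 2, 26586195 to 26586958) was its most accessible. It had 27.0, 26.7 and 29.2 CPM in Ogtflox+/Y and 24.7, 22.3 and 23.7 CPM in Ogtflox-/Y, and was not called (0.24, edgeR adjusted p = 0.084). A region inside the neighbouring gene Agpat2 (26594013 to 26594413) had 3.18, 3.09 and 3.46 CPM in Ogtflox+/Y and 1.82, 1.84 and 2.32 CPM in Ogtflox-/Y (0.70, edgeR adjusted p = 0.030). It did not pass in DESeq2 (adjusted p = 0.095), nor without Ogtflox-/Y replicate 1 or 2 or Ogtflox+/Y replicate 1 or 3 (edgeR adjusted p = 0.0501 to 0.13). It was also lost with library totals (0.43 on the log2 scale, edgeR adjusted p = 0.18), with reads in regions as the scaling (edgeR adjusted p = 0.070) and with Ogtflox+/Y replicate 2 alone (edgeR adjusted p = 0.26). A region 14291 bp beyond the gene (26606973 to 26607373) had 1.21, 0.951 and 1.33 CPM in Ogtflox+/Y and 2.43, 2.62 and 2.32 CPM in Ogtflox-/Y. It fell by 1.07 (SE 0.26, edgeR adjusted p = 0.0063).

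Pdgfrb, the pericyte receptor gene, had the most regions called lower. Its sum was 12.4, 9.16 and 12.1 CPM in Ogtflox+/Y, against 18.3, 17.8 and 17.8 CPM in Ogtflox-/Y. The genotypes stood well apart (-0.68, SE 0.12, edgeR adjusted p = 5.7e-04). The most accessible region, inside the gene (chromosome 18, 61068354 to 61068754), had 4.69, 2.93 and 3.39 CPM in Ogtflox+/Y and 9.80, 8.28 and 7.34 CPM in Ogtflox-/Y. It fell by 1.20 (SE 0.20, edgeR adjusted p = 4.2e-04). The neighbouring region inside the gene (61065885 to 61066285) had 1.06, 0.872 and 0.864 CPM in Ogtflox+/Y and 2.73, 2.23 and 1.94 CPM in Ogtflox-/Y, and fell by 1.28 (edgeR adjusted p = 0.0033). A flanking region inside the predicted gene Gm52351 fell by 0.61 (edgeR adjusted p = 0.018), a call lost without Ogtflox-/Y replicate 1 or 2 (edgeR adjusted p = 0.071 to 0.077).

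At a bound of Pdgfrb the direction was the other. The region at 61044947 to 61045347, which lies within 1 kb of Gm52351, had 4.39, 1.35 and 3.92 CPM in Ogtflox+/Y and 0.836, 1.17 and 1.42 CPM in Ogtflox-/Y. Ogtflox+/Y replicate 2 lay within the Ogtflox-/Y range. The region was called higher (1.46, SE 0.35, edgeR adjusted p = 0.0046), and with Ogtflox+/Y replicate 2 alone the value was 0.18 (edgeR adjusted p = 0.85).

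Rgs5 encodes a regulator of G protein signalling that is abundant in pericytes. Its sum was 8.33, 8.50 and 7.76 CPM in Ogtflox+/Y, against 11.9, 11.9 and 13.7 CPM in Ogtflox-/Y, without overlap (-0.61, SE 0.13, edgeR adjusted p = 0.0019). The most accessible region, 15359 bp into the gene (chromosome 1, 169670660 to 169671060), had 2.04, 2.77 and 1.93 CPM in Ogtflox+/Y and 5.39, 4.96 and 4.69 CPM in Ogtflox-/Y. It fell by 1.16 (SE 0.22, edgeR adjusted p = 0.0011). The start region, which covers the AGATAA window shown above, had 1.59, 0.793 and 1.33 CPM in Ogtflox+/Y and 1.98, 1.64 and 2.51 CPM in Ogtflox-/Y, and was not called (-0.71, edgeR adjusted p = 0.086).

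Cspg4 encodes the NG2 proteoglycan of pericytes and also of oligodendrocyte precursors. Its sum was 36.4, 35.1 and 32.1 CPM in Ogtflox+/Y and 37.4, 36.7 and 35.6 CPM in Ogtflox-/Y (-0.083, SE 0.070, edgeR adjusted p = 0.37). The most accessible region, inside the gene (chromosome 9, 56889756 to 56890372), had 18.5 ± 0.752 CPM in Ogtflox+/Y and 19.3 ± 2.96 CPM in Ogtflox-/Y (SD, n = 3 each), with a log2 fold change of -0.054. A region 16644 bp into the gene (56881548 to 56881948) had 3.93, 1.03 and 1.86 CPM in Ogtflox+/Y and 0.684, 1.17 and 0.852 CPM in Ogtflox-/Y. It was called higher (1.28, edgeR adjusted p = 0.020) although the genotypes overlap, and was lost without Ogtflox+/Y replicate 1 (0.66, edgeR adjusted p = 0.22) and without Ogtflox-/Y replicate 1 or 3 (edgeR adjusted p = 0.071 to 0.077). With library totals it had an edgeR adjusted p of 0.052. The start region was not called (0.77, edgeR adjusted p = 0.084).

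**Figure D5:**
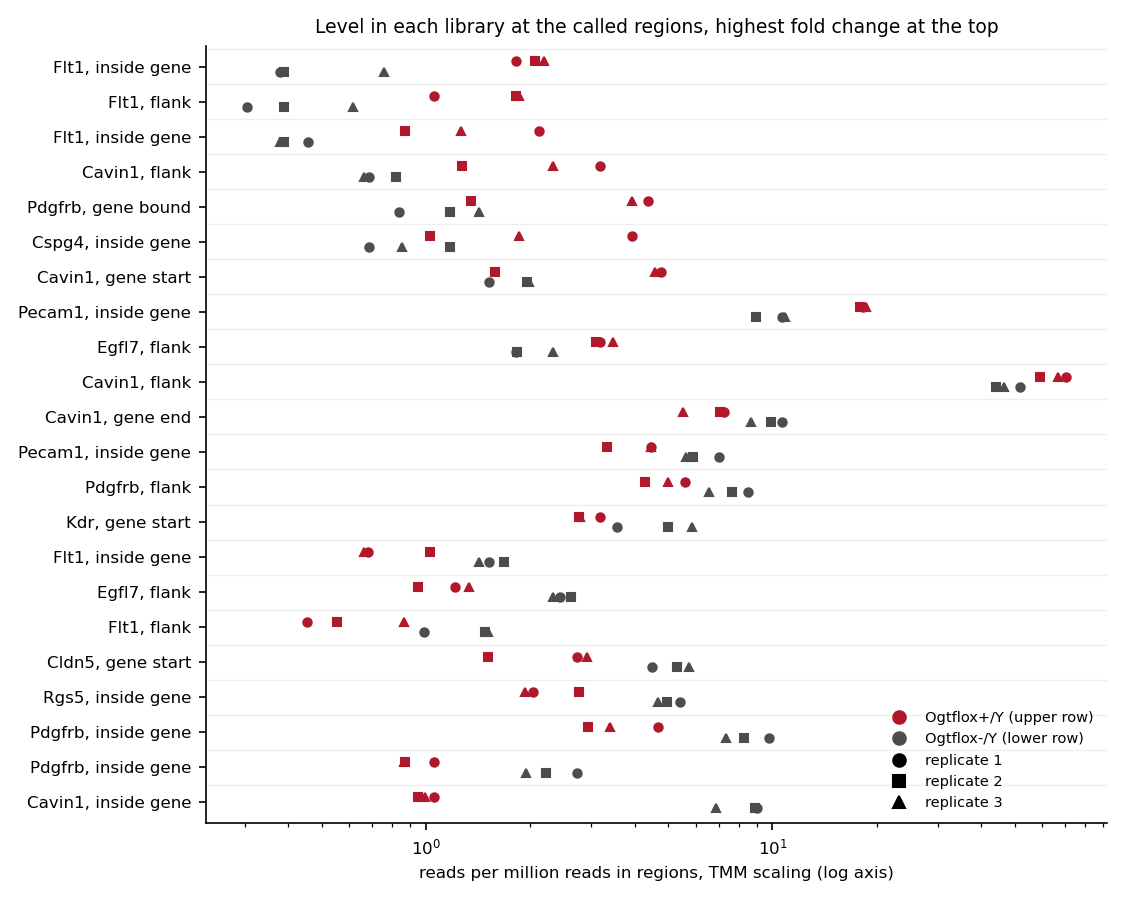
CPM of reads in regions (log axis) in each library at the 22 called regions, ordered by fold change from the highest at the top, with the Ogtflox+/Y libraries in the upper row of each pair; shapes give the replicate. Ogtflox+/Y replicate 2 (red squares) is the lowest of its genotype at 8 of the 10 regions called higher.

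Values of Ogtflox+/Y replicate 2 and of genes of other cell types were set beside these results. This library was the lowest of its genotype at 8 of 10 member regions called higher and at 7 of 12 called lower, against 49.4% and 26.8% of all regions called higher and lower. With it as the only Ogtflox+/Y library, the median log2 fold change was -0.20 over member regions and -0.026 over all regions. Without it 12 member regions were higher and 10 lower, beside 15.6% and 12.9% of all regions. Regions of all 8 astrocyte genes summed to 551.1, 417.8 and 539.9 CPM in Ogtflox+/Y and 415.5, 371.8 and 375.2 CPM in Ogtflox-/Y, so replicate 2 was the lowest of Ogtflox+/Y there too. Of 85 astrocyte regions 31 were higher and 5 lower, beside 15.4% and 12.7% of all regions. With library totals 20 were higher and 13 lower, beside 6.85% and 24.6% of all regions. Microglial regions of 8 genes summed to 203.3 to 214.9 CPM in Ogtflox+/Y and 206.4 to 232.9 CPM in Ogtflox-/Y. The 10 dopaminergic genes summed to 800.6 to 931.6 CPM in Ogtflox+/Y and 769.5 to 1206.4 CPM in Ogtflox-/Y. The part of these differences in the values of the vessel genes was not tested.

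Further genes of the vessel were taken from lists, which like the members were chosen with earlier results of these data known. Of 22 other endothelial genes, 21 had a region (Ly6c1 had none) and 4 were lower by summed reads, beside 19.6% of all genes, with 0 higher, beside 17.9%. Cdh5, which encodes the cadherin of endothelial junctions, had 7.83, 9.37 and 6.36 CPM in Ogtflox+/Y, against 10.97, 13.1 and 12.8 CPM in Ogtflox-/Y (-0.66, SE 0.15, edgeR adjusted p = 0.0030). The others were Icam2, an adhesion molecule (-0.70), Esam, another junction molecule (-0.55), and Abcb1a, an efflux transporter of the blood-brain barrier (-0.20). With the factors of the single-region fit 5 of these genes were higher and 3 lower, beside 35.3% and 8.24% of all genes. Of 161 regions 28 were higher and 20 lower, beside 15.4% and 12.7% of all regions. With library totals 13 were higher and 39 lower, beside 6.85% and 24.6% of all regions. A region in the Robo4 window, inside or within 1 kb of Robo3, had the largest gain (2.58), and a region in the Icam2 window, inside or within 1 kb of Ern1, the largest fall (-1.64).

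Endothelial transcription factor genes had 2 higher and 5 lower sums of 17, beside 17.9% and 19.6% of all genes. With the factors of the single-region fit 6 were higher and 4 lower, beside 35.3% and 8.24%. Among those lower were Fli1, an ETS factor (-0.58), Sox18 (-0.41), Foxf2 (-1.14) and Foxq1 (-0.42). Lyl1 (0.21) and Gata2 (0.30) were higher, though Lyl1 had no region within 1 kb of its annotated start. Of 132 regions 37 were higher and 16 lower, beside 15.4% and 12.7% of all regions, and with library totals 17 and 30, beside 6.85% and 24.6%. The largest gain and fall lay in or within 1 kb of Ets1 (2.14) and Fli1 (-1.97).

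Other mural genes had 6 higher and 7 lower sums of 20, beside 17.9% and 19.6% of all genes. The single-region factors gave 6 and 2, beside 35.3% and 8.24%. Kcnj8 and Abcc9, which encode the pore and the regulatory subunit of the pericyte potassium channel, were lower (-0.98 and -0.53). The windows of these neighbouring genes share regions. Atp13a5 (-0.43), Mcam (-0.33), Tbx18 (-0.49), Des (-0.31) and Myl9 (-0.42) were also lower. Anpep, an aminopeptidase gene of pericytes, was higher (0.87), as were Vtn (0.26), Notch3 (0.21), Foxs1 (0.17), Cnn1 (0.29) and Cox4i2 (0.31). Anpep, Vtn and Cnn1, and Atp13a5 of those lower, had no region within 1 kb of their annotated starts. Sums of any window can include regions of neighbouring genes. Of 131 regions 27 were higher and 16 lower, beside 15.4% and 12.7% of all regions, and with library totals 10 and 29, beside 6.85% and 24.6%. The largest gain lay in the Anpep window, in or within 1 kb of Mesp2 (1.92), and the largest fall at Atp13a5 (-1.95).

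Ligands and partners of the receptors had 5 higher and 1 lower sums of 19, beside 17.9% and 19.6% of all genes. Under the single-region factors 6 were higher and 0 lower, beside 35.3% and 8.24%. Angpt1, the ligand that activates the TEK receptor, had 21.7, 17.2 and 22.4 CPM in Ogtflox+/Y, against 13.6, 12.7 and 16.2 CPM in Ogtflox-/Y (0.53, SE 0.12, edgeR adjusted p = 0.0030). Vegfd (0.28), Pdgfa (0.19), Notch1 (0.44) and Notch4 (0.18) were higher, and Nrp2, a VEGF co-receptor gene, was lower (-0.21). Vegfd and Notch4 had no region within 1 kb of their annotated starts. Of 243 regions 46 were higher and 32 lower, beside 15.4% and 12.7% of all regions, and with library totals 22 and 59, beside 6.85% and 24.6%. The largest gain lay at Angpt1 (2.78), with 13.6, 3.57 and 10.8 CPM in Ogtflox+/Y and 1.75, 1.21 and 1.23 CPM in Ogtflox-/Y, and the largest fall in the Flt4 window (-1.97).

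Partners in caveolae and tight junctions had 3 higher and 1 lower sums of 10, beside 17.9% and 19.6% of all genes, or 4 and 0 with the single-region factors, beside 35.3% and 8.24%. Cavin3 (0.34) and Ehd2 (0.20) were among those higher, and Pacsin2 (-0.29) was lower. Of 129 regions 21 were higher and 19 lower, beside 15.4% and 12.7% of all regions, and with library totals 11 and 30, beside 6.85% and 24.6%. The largest fall lay at Pacsin2 (-1.77). Perivascular fibroblast genes, which share the vessel wall, had 1 higher and 2 lower sums of 7. Oligodendrocyte precursor genes, which share Cspg4 as a marker, had 1 higher and 1 lower of 8. The shares of all genes given above apply to these lists too. Microglial genes had 0 higher and 4 lower of 8, astrocyte genes 2 and 0 of 8, dopaminergic genes 1 and 1 of 10, and pan-neuronal genes 2 and 3 of 8.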

How the data were processed

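Per the submitters' processing notes, FastQC, Trimmomatic, BWA, SAMtools 1.9, Picard, MACS2 and mm10 were used, without their roles. For the counting program and any shift of reads for transposase binding, the step is not given in the sources used here. A general-purpose DNA library kit was used, per the labels' protocols, which describe no transposition step. Per the file headers, each of the 193148 common regions has Reads, RPKM and a Score. The deposited Reads are whole counts without normalization. The deposited RPKM values equal the count over region width and library total, and describe start levels. The Score, a deposited signal value, was not tested.

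Counts were tested with edgeR 4.0.16 in R 4.3.3 (quasi-likelihood, TMM, filterByExpr, group as the only term). The sums per gene were fitted in the same way over 18416 genes, and windows of neighbouring genes share regions. The test was checked on simulated data. The genotype label gave the groups. Alternatives were DESeq2 1.42.0 and, as scaling in edgeR, library totals, reads in regions and loess offsets (R's lowess function). Further ones were omitting the low-count filter, leaving out each library in turn and grouping by title. Ogtflox+/Y replicate 2 as the only library of its genotype, narrower windows and deposited RPKM were also used. The scaling factors of the single-region fit for gene sums were chosen after seeing the data. The fit with 1 library of a genotype assumes that it varies like the other group.

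RefSeq bounds and promoters for GRCm38.p6 (mm10) were matched by symbol for all 10 genes and for 8 of 10 genes. Exons, introns and UTRs were not annotated there. The named regions are, per gene, the most accessible, the most accessible at the start and the called regions of extreme fold change; further called regions were named after their values were seen. Of other lists, genes called by summed reads and the extreme called region in each direction are named. Values of some list genes that this rule names are not reported here; they stay in the lists' counts. Members and lists were chosen with earlier results of these data known. Counting floors of 3 reads cover counting error only.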

Additional observations from a re-analysis of the deposited data

How the results depend on the processing

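Of 75 member regions, 10 were higher and 12 lower in Ogtflox+/Y, beside 15.4% and 12.7% of all regions. With library totals 6 were higher and 26 lower, beside 6.85% and 24.6%. Reads in regions gave 9 and 18, beside 11.8% and 17.4%, and DESeq2 gave 9 and 9, beside 10.9% and 7.73%. Loess offsets gave 10 and 11, beside 13.7% and 11.8%. Without a filter on low counts 10 were higher and 13 lower of 76, beside 15.4% and 12.6%. Within gene bounds 6 were higher and 9 lower of the 41 regions tested there. With each library left out 7 to 12 were higher, beside 9.91% to 15.6% of all regions, and 7 to 12 lower, beside 7.66% to 12.9%. The count of 7 lower was that without Ogtflox-/Y replicate 2. With Ogtflox+/Y replicate 2 alone the median log2 fold change was -0.20 over member regions and -0.026 over all regions. Grouped by title, edgeR called 0 higher and 0 lower, with 17 member regions at an unadjusted p under 0.05, and called 0% of all regions. Under that grouping 0 of the 4 lower gene sums passed, with 2 at an unadjusted p under 0.05; under the other alternatives 3 to 5 were lower and 0 higher. The Cavin1 region at 100970429 reversed to -0.24 with Ogtflox+/Y replicate 2 alone (edgeR adjusted p = 0.75), and the Cspg4 region at 56881548 to -0.15 under grouping by title (edgeR adjusted p = 0.93); the cause was not tested. The Kdr sum was lost with loess offsets (-0.45, edgeR adjusted p = 0.079) and with Ogtflox+/Y replicate 2 alone (-0.87, edgeR adjusted p = 0.058). On deposited RPKM, 14 of the 22 called regions moved by less than the spread between replicates, 8 by more, and 0 changed sign. Weak regions rest on few reads, where 3 reads are 0.117 to 0.238 CPM, and smaller changes there may be missed.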
